A study of Mus musculus with 15 samples.

Results

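Cells of the prefrontal cortex (PFC) of mice at postnatal day 21 (P21) were compared with cells of the PFC of adult mice that had been given saline (P60). Members were chosen from the series' table of annotated cells by developmental stage and treatment, which gave 10538 cells in 3 libraries at P21 and 11886 cells in 6 libraries at P60, together 22424 of the 35360 annotated cells and 9 of the 15 libraries. All mice were male C57BL/6N. P21 mice are labelled as 3 weeks old with no self-administration, and P60 mice as 8 to 10 weeks old. The labels also name the nucleus accumbens (NAc) as the tissue, whereas titles and source name the PFC, which was used here. The P60 mice had been food-restricted, trained with food, fitted with a catheter in a vein and allowed to self-administer saline. They served in the study as the controls of mice that self-administered cocaine. P60 libraries 2 and 3 were taken at maintenance of self-administration, libraries 5 and 7 after 48 h of withdrawal, and libraries 11 and 12 after 15 days of withdrawal. The study places the catheter surgery at P60, so by its protocol tissue was taken after that age, and later in the withdrawal phases. Each library holds pooled tissue of 2 mice, so p-values measure the spread between libraries. The methods name fewer P21 mice than 3 such pools need, so the P21 libraries cannot all be of separate animals. For this reason an alternative with P21 libraries 2 and 3 summed as 1 was run for the gene tests within classes. It was not run for the exact permutation tests of depth and of shares, which count the 3 P21 libraries as separate. No library holds both ages, so age cannot be told apart from the food restriction, the surgery, the training or the library. The single-cell libraries were made with a droplet method that counts unique molecular identifiers (UMIs), each standing for 1 captured RNA molecule.

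The PFC is among the last cortical regions to mature. Between weaning and adulthood its neurons lose the growth-associated cytoskeleton of young axons and dendrites, oligodendrocytes wrap axons in myelin, and vessels stop sprouting and settle into the mature blood-brain barrier. DNA methyltransferases and TET enzymes, which write and oxidise methyl groups on cytosine, are active in neurons during this period, and microglia, the resident immune cells, clear surplus synapses.

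The 9 libraries held between 8375172 and 42892922 UMIs in annotated cells, with a median of 3426 to 10962 UMIs per cell. Pairs of libraries shared 1 to 27 cell barcodes, which is 0.0948% to 0.853% of the smaller library. Cells were grouped by the cluster names the authors deposited, without the trailing number: excitatory neurons (Exc), inhibitory neurons (Inhib), astrocytes (Astro), oligodendrocytes (Oligo), newly formed oligodendrocytes (NF Oligo), oligodendrocyte precursors (OPC), microglia and endothelial cells (Endo). The study named P21 cells by their correlation with P60 clusters. At both ages the summed level of the markers of each of these 8 classes was highest in that class, and Endo also held mural and erythrocyte markers. The UMIs of a class were summed per library, and levels are given as counts per 1e6 summed UMIs (CPM). The median number of UMIs per cell of Exc was 9076 ± 2132 at P21 (SD, n = 3) and 13728 ± 1089 at P60 (SD, n = 6), the groups did not overlap (exact permutation test, two-sided, p = 0.0119, the smallest that 84 regroupings allow, Benjamini-Hochberg adjusted p = 0.0429). In NF Oligo it was 2888 ± 740 (SD, n = 3) and 5714 ± 944 (SD, n = 5), without overlap (exact permutation p = 0.0179, adjusted p = 0.0429), in microglia 2472 ± 368 and 3287 ± 469 (exact permutation p = 0.0357, adjusted p = 0.0779), and in Oligo 4969 ± 785 and 3583 ± 892 (exact permutation p = 0.0714). The mitochondrial share of UMIs over all cells was 3.49% ± 0.185 (SD, n = 3) at P21 and 2.81% ± 0.263 (SD, n = 6) at P60, again without overlap and with the same adjusted p. Within classes the share was lower at P60 in Exc, Inhib, Astro, NF Oligo and microglia, each without overlap, whereas in Endo it was 2.98% ± 0.0556 at P21 and 3.52% ± 0.319 at P60 (exact permutation p = 0.0476, adjusted p = 0.0952) and in Oligo 4.58% ± 0.200 and 4.94% ± 0.364 (exact permutation p = 0.155). Whether depth or mitochondrial share has a part in any difference below was not tested.

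Both neuron classes, Oligo and Endo differed widely between P21 and P60. Differences are given as log2 fold changes of P60 over P21 from edgeR's quasi-likelihood test with Benjamini-Hochberg adjustment, and a gene is called where its adjusted p is below 0.05 and its change exceeds 1.5-fold. In Exc 19.3% of 13244 tested genes were called, 8.18% higher and 11.1% lower at P60. In Inhib 14% of 8897 were called, 5.73% higher and 8.27% lower. Oligo followed with 17.8% of 5100 genes, 7.55% higher and 10.3% lower, and Endo with 12.7% of 10414, of which 5.31% were higher and 7.35% lower. Far fewer passed in NF Oligo, Astro and microglia. They were 1.94% of 4692 genes in NF Oligo (0.746% higher and 1.19% lower), 1.11% of 5790 in Astro (0.121% higher and 0.984% lower) and 0.726% of 3993 in microglia (0.025% higher and 0.701% lower). At an unadjusted p below 0.05 there were 698, 809 and 455 genes in these 3 classes. For Astro and NF Oligo only 5 P60 libraries had at least 10 cells, and P60 library 3 was left out. OPC could not be tested, since the P21 libraries held 28, 7 and 6 such cells. The median log2 fold change over all tested genes lay between -0.005 and 0.055 in the 7 classes. Counts of NF Oligo, Astro and microglia, and in part their balance of higher and lower genes, depended on single libraries. The 64 called genes of Astro (7 higher and 57 lower) became 186 without P21 library 1 (80 higher and 106 lower) and 100 without P60 library 12, and 27 to 42 without P21 library 2 or 3 or P60 library 2, 5 or 7. The 91 of NF Oligo became 186 without P60 library 12, and 26 to 57 without P60 library 2, 7 or 11 or P21 library 2, with 35 higher and 56 lower from all libraries, 74 and 61 without P21 library 1, and 18 and 8 without P60 library 11. The 29 of microglia (1 higher and 28 lower) became 62 without P60 library 12 and 68 without P60 library 11 (17 higher and 51 lower), 16 to 19 without P60 library 2 or 3 or P21 library 2, and 7 without P21 library 1. Of the larger classes, Inhib had 767 called genes in place of 1246 without P21 library 3.

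**Figure D1:**
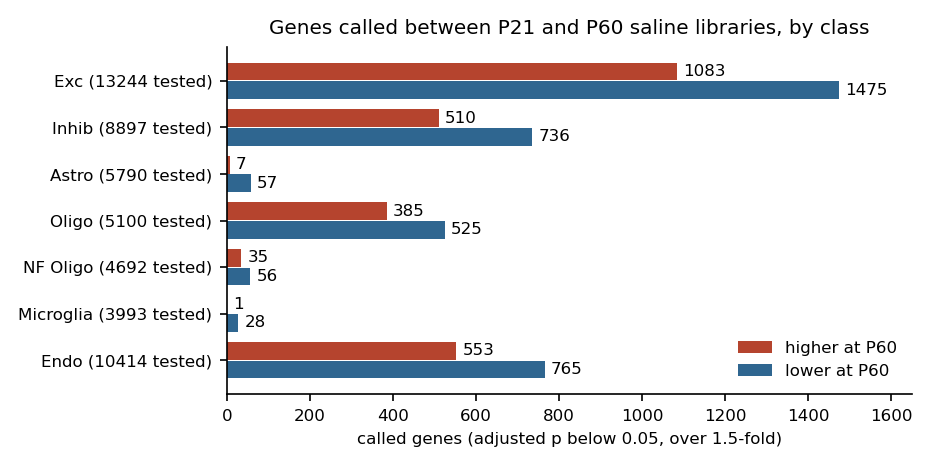
Number of genes called higher (red bars) and lower (blue bars) at P60 than at P21 in each cell class, by edgeR's quasi-likelihood test on UMIs summed per library. Exc has 1083 higher and 1475 lower genes, and microglia 1 higher and 28 lower.

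Most of the genes that were measured in every class were called in none, and those called in many classes were mainly lower at P60. Astro, NF Oligo and microglia had few calls, and their balance of higher and lower genes depended on the libraries used. A gene called in none is therefore not shown to be unchanged. Of 2759 genes tested in all 7 classes, 1920 were called in none, 65 were lower in 4 or more and 9 were higher in 4 or more. There were 22 genes higher in 1 class and lower in another. Marcksl1, Pfn1 and Tmem93 were called lower in all 7 classes. Marcksl1 encodes a MARCKS-like protein that binds actin and calmodulin at the membrane, and Pfn1 encodes profilin, which feeds actin monomers to growing filaments. Over the 7 classes the mean log2 fold change was -2.20 for Marcksl1, -2.37 for Pfn1 and -2.24 for Tmem93. The change of Tmem93 had an SD of 0.14 over classes, against 0.72 for Marcksl1. Ndufab1, Hmgn1, Nol7, Tmem9b, Rab11a, Rexo2 and Gm10071 were called lower in 6 classes, and Gm10071 overlaps Med12l.

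Several of these genes also differed between libraries of 1 age. In Exc, Tmem93 was at 278, 166 and 133 CPM in P21 libraries 1 to 3 and between 20.6 and 80.3 CPM (median 29.7) in the P60 libraries. Over the 10 genes lower in most classes there were 70 combinations of gene and class, and P21 library 1 was the highest of its age in 49 and P60 library 12 the highest of its age in 58. For Tmem93 both held in 7 of 7 classes. Cox5a, a subunit of cytochrome c oxidase, showed the same arrangement in Exc with 1245, 516 and 437 CPM at P21 and 97.1 to 309 CPM (median 126) at P60. P21 library 1 was also the highest of its age in 7 of 7 classes for Faim2 and Prmt1, which are among the genes higher in most classes. For Hspa1a and Rbm3, also among them, it was so in 1 of 7. P60 library 12 was the highest of its age in at most 3 classes for any of these 10 higher genes. Whether a property of these 2 libraries has a part in any of these differences was not tested. Tmem93 and Pfn1 did not overlap between the ages in Exc. Marcksl1 was less uneven, with 241, 227 and 225 CPM at P21.

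The genes higher at P60 in most classes were called in at most 4 of the 7. Hspa1a, an inducible HSP70 chaperone with a near-identical copy in Hspa1b, was the first of them with a mean log2 fold change of 2.17. It was called in Exc (1.82), Inhib (1.94), NF Oligo (3.57) and Endo (1.49). Faim2, an inhibitor of Fas-mediated cell death, followed with a mean of 1.28, and Sf3a2, a splicing factor, with 1.24. Prmt1, which methylates arginines of histones and RNA-binding proteins, had a mean of 0.84, and Rbm3, a cold-inducible RNA-binding protein, of 0.79. Others were Ifi27l1, Med6, Arl6ip5 and Ckb, with means from 0.55 to 0.92.

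**Figure D2:**
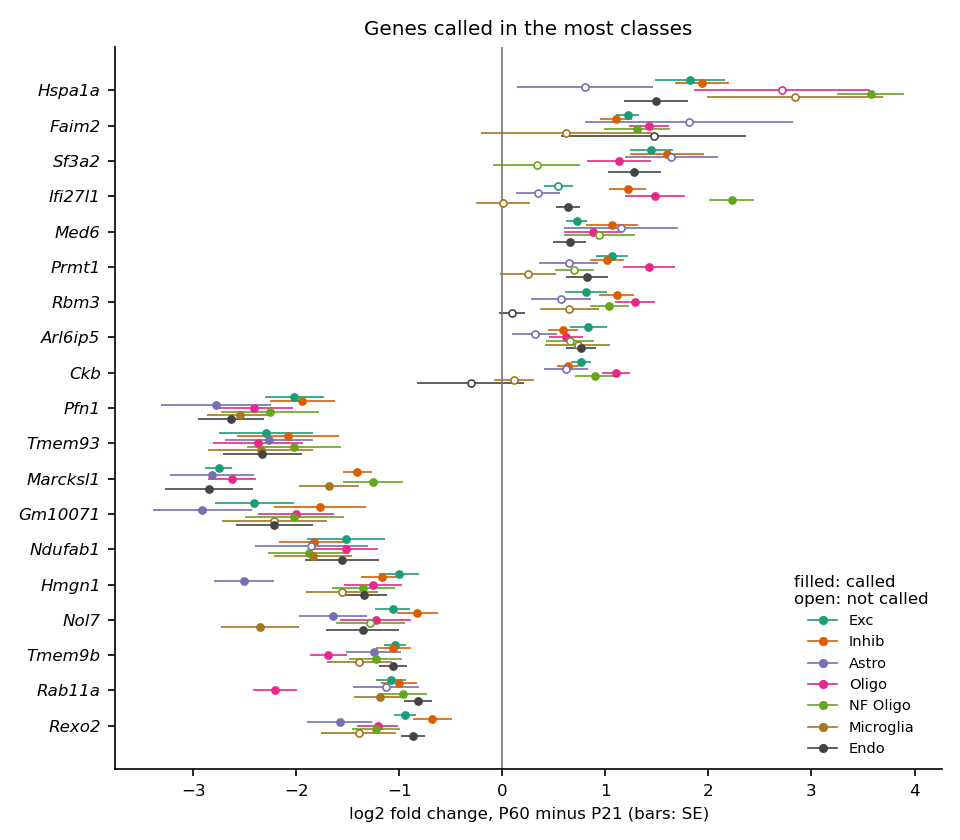
Log2 fold change of P60 over P21 (horizontal axis) in each cell class for the genes called in the same direction in most classes, with 1 colour per class. Filled points passed the call and open points did not, and Marcksl1, Pfn1 and Tmem93 are filled in all 7 classes.

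Growth-associated genes were lower at P60 in Exc. Of 28 tested genes of the growth cone and of neurite outgrowth, 12 were lower at P60 and 0 were higher, beside 11.1% and 8.18% of all genes, with a median log2 fold change of -0.48. Marcksl1 (chromosome 4, 129190825 to 129193229, plus strand, NCBIM37) was at 20.6 to 38.6 CPM (median 33.6) in the P60 libraries, a log2 fold change of -2.75 (SE 0.13, edgeR adjusted p = 2.93e-07) from the P21 levels given above. It was also lower at P60 in 26 of 26 excitatory clusters. Cd24a, a surface glycoprotein of young neurons, was at 44.6, 101 and 97.0 CPM at P21 and at 4.92 to 12.0 CPM (median 7.24) at P60 (log2 fold change -3.23, SE 0.31, edgeR adjusted p = 0.000117). The groups did not overlap for either gene, which the rule for the largest changes given below requires of both. Tubb2b, a tubulin of migrating and growing neurons, changed by -1.43, Dpysl2, which promotes microtubule assembly in axons, by -0.97, and the doublecortin-like kinase Dclk1 by -0.67. Gap43, the classical growth-associated protein of axon terminals, was at 1297, 2187 and 2213 CPM at P21 and at 887 to 1286 CPM (median 1158) at P60. Its log2 fold change was -0.68 (SE 0.16, edgeR adjusted p = 0.00459), and it fell under the 1.5-fold limit without P21 library 2 (-0.57) or 3 (-0.55), as did Crmp1 (-0.63).

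Axon guidance genes were also lower rather than higher, with 12 of 40 called lower and 0 higher (median log2 fold change -0.13) beside 11.1% and 8.18% of all genes, and 1 higher without P21 library 1 or P60 library 3. They included the repulsive receptor Robo1, at 10.7, 15.6 and 13.7 CPM at P21 and 6.04 to 9.48 CPM (median 7.22) at P60 (log2 fold change -0.79, SE 0.15, edgeR adjusted p = 0.00142), the ephrin receptors Ephb1 (-0.68) and Ephb2, and 6 semaphorins. Nnat, an imprinted gene of young neurons, was at 226, 650 and 579 CPM at P21 and at 68.8 to 124 CPM (median 95) at P60 (-2.28, SE 0.31, edgeR adjusted p = 0.000653). Of 9 neurofilament and microtubule-associated genes none was called, beside 19.3% of all genes called in either direction. Nefh, the heavy neurofilament chain, had a log2 fold change of 0.00 (SE 0.14), and Nefm, the medium chain, of -0.36 (SE 0.18, edgeR adjusted p = 0.119).

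Changes are called largest, in Exc and in the other classes, among genes with a mean log2 CPM of at least 5 whose libraries did not overlap between the ages. On that rule the largest increases in Exc were in Ass1, Myh14, Tnnt2, Gpr83 and S100a6. The rule itself requires absence of overlap, which therefore adds nothing to the calls of the genes it names. Of all tested genes, 35.0% did not overlap in Exc, 17.9% in Inhib, 22.1% in Oligo and 21.1% in Endo. The share was 10.7% in Astro, 9.25% in NF Oligo and 8.06% in microglia. Ass1, argininosuccinate synthase of the urea cycle and of arginine recycling, was at 12.0, 10.5 and 9.86 CPM at P21 and at 59.1 to 101 CPM (median 79.6) at P60 (log2 fold change 2.95, SE 0.16, edgeR adjusted p = 3.85e-07). Myh14, a nonmuscle myosin heavy chain, was at 9.70, 6.31 and 5.95 CPM at P21 and at 41.6 to 60.6 CPM (median 44.6) at P60 (2.71, SE 0.18). Tnnt2, troponin T of heart muscle, was at 14.4, 14.1 and 13.4 CPM and rose to between 52.9 and 90.3 CPM (2.41, SE 0.14). Tnnt2 was higher at P60 in 26 of 26 clusters. Gpr83, a G protein-coupled receptor, changed by 1.76 (SE 0.12, edgeR adjusted p = 1.98e-06) and S100a6, a calcium-binding protein, by 1.71 (SE 0.33, edgeR adjusted p = 0.00383).

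Synaptic vesicle genes changed in both directions. Of 46 synaptic vesicle genes, 5 were higher and 6 lower at P60, a share near that of all genes. Snap25, the SNARE protein of the presynaptic membrane, was at 2944, 3134 and 2985 CPM at P21 and at 3845 to 5241 CPM (median 4512) at P60 (log2 fold change 0.65, SE 0.11, edgeR adjusted p = 0.000553), higher in 26 of 26 clusters. Synpr, a synaptic vesicle membrane protein, changed by 0.93, and within clusters it was higher in 21 and lower in 5 (median log2 ratio 0.50). Among 41 glutamate receptor genes 2 were higher and 3 lower (8.18% and 11.1% of all genes), and there were 7 higher without P21 library 1 and 0 without P21 library 3 or with cells whose 2 deposited labels agreed. Of 23 genes of GABA synthesis, transport and reception 0 were higher and 7 lower (median -0.34), with 3 higher without P21 library 1 and 3 lower with agreeing labels. The NMDA receptor subunit Grin3a, typical of the juvenile brain, was at 25.8, 30.1 and 32.3 CPM at P21 and at 11 to 17.8 CPM (median 13.2) at P60 (-1.02, SE 0.13, edgeR adjusted p = 8.89e-05). The kainate receptor Grik3 changed by -0.72, and within clusters it was lower in 16 and higher in 8 (median log2 ratio -0.26). Of 63 ion channel genes only 1 was higher and 1 lower, fewer than the 19.3% of all genes. Neuropeptide genes numbered 3 higher and 8 lower of 28 (8.18% and 11.1% of all genes), among them Npy (-1.26) lower and Nppc (1.2) higher. Within 26 clusters Npy was lower in 25 and higher in 1 (median log2 ratio -0.70). Nppc was higher in 26 of 26 (median 0.87). The peptides named for interneurons (Sst, Vip and Cort) are among the lower genes, and the lower count was 5 with cells whose 2 deposited labels agreed or without P21 library 2, while the higher count was 5 without P21 library 1 and 1 without P21 library 3.

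Immediate-early genes, which neurons and glia induce within minutes of stimulation or of tissue handling, were lower at P60 in Exc. Of 39 tested, 23 were lower and 1 was higher (Ier3), beside 11.1% and 8.18% of all genes, with a median log2 fold change of -0.69. Junb was at 279, 224 and 192 CPM at P21 and at 26.9 to 85.1 CPM (median 50.7) at P60 (log2 fold change -2.15, SE 0.34, edgeR adjusted p = 0.00153). Fos was at 210, 232 and 227 CPM against 53.9 to 141 CPM (median 81.5) (-1.28, SE 0.27, edgeR adjusted p = 0.0057). Neither gene overlapped between the ages, and both were lower in 26 of 26 clusters. Ier2 changed by -2.92 and the orphan nuclear receptor Nr4a1 by -1.02. Whether handling differed between the ages cannot be told apart from age.

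Among 15 tested genes of DNA methylation and demethylation 6 were lower and 1 higher (Mbd4) at P60, beside 11.1% and 8.18% of all genes, with a median log2 fold change of -0.41. Dnmt3a (chromosome 12, 3806007 to 3914443, plus strand, NCBIM37), the de novo DNA methyltransferase of postnatal neurons, was at 87.7, 133 and 126 CPM at P21 and at 37.2 to 43.8 CPM (median 41.5) at P60. The log2 fold change was -1.43 (SE 0.11, edgeR adjusted p = 5.52e-06), and the level was lower at P60 in 26 of 26 clusters. Tet1, which oxidises 5-methylcytosine, was at 15.9, 23.6 and 24.9 CPM against 4.71 to 6.47 CPM (median 5.62) (-1.82, SE 0.14, edgeR adjusted p = 5.52e-06). Tet3 changed by -0.78 (SE 0.10). The glycosylase Tdg (-0.72) and the methyl-binding protein Mbd3 (-0.71) were called as well, and both calls were lost without P21 library 1, which left 4 lower genes. Mbd4 was not called without P21 library 1 or 3, without P60 library 2, 3 or 11, or with agreeing labels. In Inhib 5 of 13 were lower and 0 higher (8.27% and 5.73% of all genes), with Dnmt3a at -1.75 (SE 0.20, edgeR adjusted p = 2.95e-05) and Tet1 at -1.52 (SE 0.26, edgeR adjusted p = 0.0008). The difference of the change between Inhib and Exc did not pass for either gene (-0.31, SE 0.15, edgeR adjusted p = 0.223 for Dnmt3a, and 0.24, SE 0.28, edgeR adjusted p = 0.685 for Tet1). In Endo Dnmt3a changed by -0.94 (SE 0.14, edgeR adjusted p = 0.000388).

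Summed markers of oligodendrocytes, astrocytes, vessels and blood were lower at P60 in the Exc profiles. The summed level of 7 oligodendrocyte markers was 305 to 657 CPM at P21 and 59.0 to 161 CPM at P60, that of 7 astrocyte markers 722 to 801 against 344 to 574 CPM, and that of 7 endothelial markers 80.9 to 121 against 20.9 to 42.5 CPM. The 5 erythrocyte markers summed to 1028 to 1674 CPM against 106 to 518 CPM. Called lower were 5 of 7 oligodendrocyte, 6 of 7 endothelial and 5 of 5 erythrocyte markers, and 0 of these were higher. Of the 7 astrocyte markers only 1 was called lower, and 1 was called higher. Of 4 tested Inhib markers 3 (Gad1, Gad2 and Slc32a1) were lower as well, and Snap25, which all neurons express, was higher (log2 fold change 0.65, SE 0.11). With Snap25 the Inhib markers summed to 2955 to 3145 CPM at P21 and 3849 to 5242 CPM at P60. Members of these groups appear among the largest decreases of Exc, such as the globin Hbb-b2 with 147, 142 and 97.3 CPM at P21 and 4.23 to 35.6 CPM at P60 (log2 fold change -2.91, SE 0.50). Gm1673 (-2.73, SE 0.73) was also among the largest decreases, and its call was lost without P21 library 1 (edgeR adjusted p = 0.10). With cells whose 2 labels agreed, 5 of 35 blood-brain barrier genes were lower in Exc in place of 22 of 42, 12 of 28 growth cone genes were lower, as with all cells, and 18 immediate-early genes in place of 23. The part of such transcripts in the other results was not tested.

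In Inhib growth-associated genes were lower as in Exc, and in both classes the shares of some clusters differed between the ages. Of 28 growth cone genes 13 were lower and 0 higher, beside 8.27% and 5.73% of all genes (median log2 fold change -0.42). Marcksl1 was at 189, 192 and 182 CPM at P21 and at 56.7 to 89.1 CPM (median 76.3) at P60 (log2 fold change -1.41, SE 0.14, edgeR adjusted p = 4.73e-06), without overlap. The decrease was smaller than in Exc by 1.28 (SE 0.14, edgeR adjusted p = 3.32e-08) in a fit of both classes with the library as a block. In that fit 11.2% of 12195 genes differed between the classes, which is 1361 genes, or 827 without P21 library 3. Myh14 and Gpr83, 2 of the largest increases of Exc, differed by -2.55 (SE 0.23, edgeR adjusted p = 3.93e-11) and -3.28 (SE 0.22, edgeR adjusted p = 1.65e-09), and Ass1 by -1.64 (SE 0.21, edgeR adjusted p = 3.29e-05). Gap43 changed by -0.65 in Inhib (SE 0.14, edgeR adjusted p = 0.0031), which fell under the 1.5-fold limit without P21 library 2 or 3, and its difference from Exc was -0.03 (SE 0.07).

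Interneuron identity genes and the shares of clusters both differed with age in Inhib. Of 31 genes tested, beside 5.73% higher and 8.27% lower of all genes, 2 were higher (Id2, Meis2, and 4 without P60 library 7) and 7 lower, among them Calb1, Elfn1, Kcnc2, Satb1 and Sox6. Calb1, the calcium buffer calbindin, was at 535, 513 and 514 CPM at P21 and at 67.6 to 161 CPM (median 128) at P60 (log2 fold change -2.20, SE 0.19, edgeR adjusted p = 6.65e-06). Satb1 and Sox6, transcription factors of Sst and Pvalb interneurons, changed by -1.96 and -1.84, and Kcnc2, a fast potassium channel, by -1.64. Id2, an inhibitor of helix-loop-helix factors, was at 379, 189 and 167 CPM against 713 to 1002 CPM (median 894) (1.82, SE 0.25, edgeR adjusted p = 0.000808). All of these were without overlap. The cluster Inhib_2 made up 35.2% ± 2.90 of Inhib cells at P21 (SD, n = 3) and 7.60% ± 4.66 at P60 (SD, n = 6), and Inhib_7 8.25% ± 4.94 and 31.5% ± 9.69. Inhib_1, which like Inhib_2 the study describes as Sst neurons, made up 10.3% ± 2.06 and 2.45% ± 2.54. Inhib_6 made up 16.3% ± 6.19 and 2.36% ± 3.17. Inhib_9, described as Vip neurons, made up 6.55% ± 2.60 and 16.3% ± 7.31. The ages did not overlap for these clusters. Only 3 inhibitory clusters held enough cells for a comparison within clusters. Dnmt3a, Marcksl1 and Gap43 were lower at P60 in 3 of 3, whereas Calb1, Satb1 and Kcnc2 were lower in 2 and higher in 1, and Id2 was higher in 2 and lower in 1. The median log2 ratio within clusters was -0.71 for Calb1, -0.06 for Satb1, -0.12 for Kcnc2 and 0.21 for Id2. Sox6 was at -0.18 in the 1 cluster that gave a value. Shares of some clusters differed in Exc as well. Exc_20 made up 8.37% ± 0.377 of Exc cells at P21 (SD, n = 3) and 1.19% ± 0.662 at P60 (SD, n = 6). Exc_5 made up 1.58% ± 0.254 and 4.82% ± 1.69. Both were without overlap, whereas most excitatory clusters overlapped. The part of cluster shares in the class values of Inhib and Exc was not tested.

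Rbp4 and Cartpt were among the other large changes of Inhib. Rbp4, a retinol carrier, was at 855, 980 and 921 CPM at P21 and at 74.9 to 208 CPM (median 114) at P60 (log2 fold change -2.78, SE 0.27), and Cartpt, a peptide precursor, at 275, 596 and 512 CPM against 0 to 93.0 CPM (-3.07, SE 0.44). Within the 3 inhibitory clusters the log2 ratio of P60 to P21 lay between -2.26 and 3.85 for Rbp4, lower in 2 clusters and higher in 1, and for Cartpt it was -0.98 in the 1 cluster that gave a value. Gm13205 (-2.63), which lies on the other strand of Casz1, Cox5a (-2.43) and Gm1673 (-3.14, lost without any of the P60 libraries in turn, with an edgeR adjusted p of up to 0.088) were the other large decreases. Cplx3, a complexin that clamps vesicle fusion, was the largest increase with 94.9, 30.2 and 17.6 CPM at P21 and 206 to 318 CPM at P60 (2.46, SE 0.50, edgeR adjusted p = 0.0145), a call lost without P21 library 2 (adjusted p = 0.055). Its ratio was above 0 in 3 of 3 clusters, with a median of 1.21. Thrsp (2.13), Accn4 (1.95) and Hspa1a (1.94) were the next. Gad1, the main enzyme of GABA synthesis, was at 1004, 946 and 841 CPM at P21 and 1257 to 2023 CPM (median 1553) at P60 (0.79, SE 0.15, edgeR adjusted p = 0.00126), but within the 3 inhibitory clusters the log2 ratio of P60 to P21 lay between -0.14 and 0.11. For Sst the libraries did not overlap either, with 12210, 10974 and 13198 CPM against 0 to 7995 CPM (median 2703), but the spread between P60 libraries was wide and the test was not passed (-1.87, SE 1.08, edgeR adjusted p = 0.277). Vip (0.84, SE 0.48), Pvalb (-0.86, SE 0.71) and Npy (0.64, SE 0.22) did not pass. Within the 3 inhibitory clusters Npy was lower at P60 in 3, unlike its class value, with log2 ratios from -2.14 to -0.42. Sst was lower in 2 clusters and higher in 1 (median -0.08), and Vip was lower in 1 and higher in 1.

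**Figure D3:**
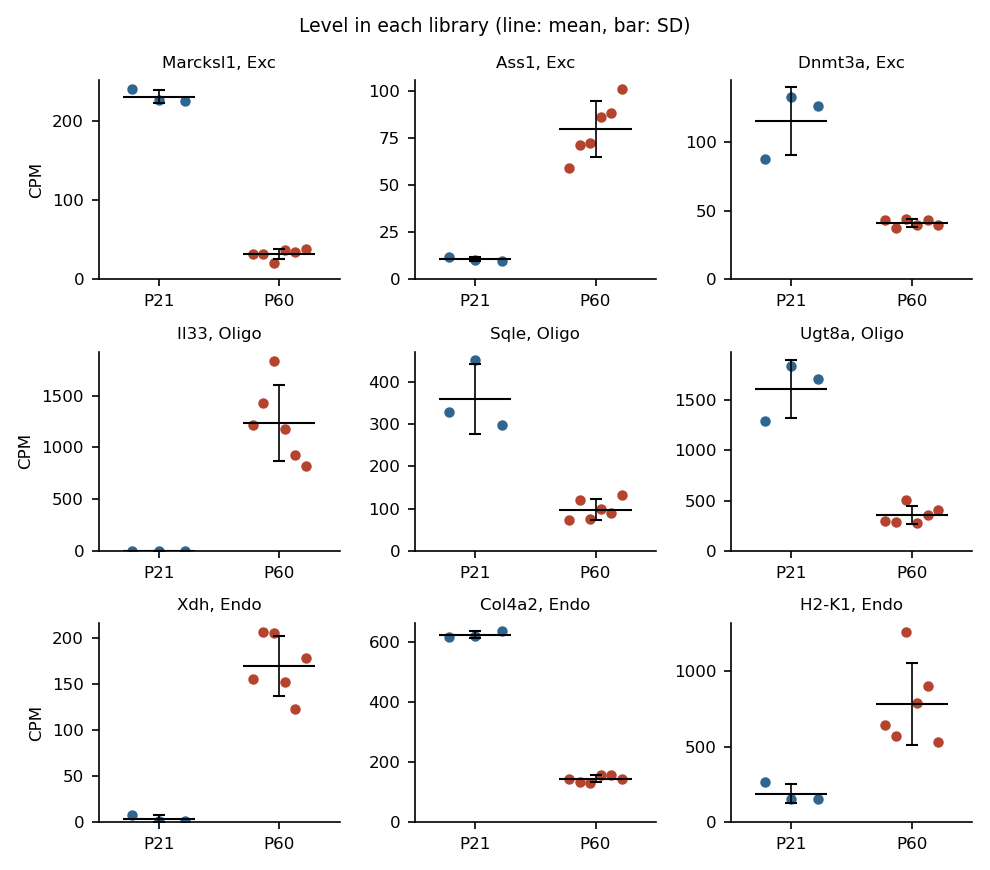
CPM of 9 genes in each library (points), with the mean as a line and the SD as a bar, for P21 (n = 3) and P60 (n = 6) in Exc, Oligo and Endo. Marcksl1 and Dnmt3a in Exc, Sqle and Ugt8a in Oligo and Col4a2 in Endo are lower at P60, and Ass1 in Exc, Il33 in Oligo, and Xdh and H2-K1 in Endo are higher, without overlap.

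In Oligo, Il33 and Ptgds were among the largest increases, and genes of lipid synthesis were lower. Il33 (chromosome 19, 29999604 to 30035194, plus strand, NCBIM37), which encodes the nuclear alarmin interleukin 33, was at 2.00, 2.49 and 0 CPM at P21 and at 822 to 1833 CPM (median 1200) at P60. The log2 fold change was 9.23 (SE 0.47, edgeR adjusted p = 3.08e-07). Ptgds, prostaglandin D synthase, was at 3989, 707 and 1121 CPM against 13653 to 27681 CPM (median 20721) (3.38, SE 0.64, edgeR adjusted p = 0.00907). The lowest P60 library lay above the highest P21 library for both genes, which the rule for the largest changes requires. Xaf1 (3.74), the serine protease inhibitor Serpinb1a (3.29) and Pdlim1 (3.27) were the other large increases. The largest decreases were Mgp, a matrix protein, with 104, 110 and 280 CPM at P21 and 0 to 9.85 CPM at P60 (-5.67, SE 0.58, edgeR adjusted p = 6.9e-05), Bace2 (-4.65), the complement gene C1qc (-4.28), Barx2 (-3.46) and Id3 (-3.19). Microglial markers summed to 114 to 363 CPM in Oligo at P21 and to 7.50 to 47.0 CPM at P60, and the part of microglial RNA in the value of C1qc was not tested.

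Cholesterol synthesis, which supplies the growing myelin sheath, was lower at P60 through most of the pathway. Of 32 tested genes of sterol and fatty acid synthesis 21 were lower and 2 higher, beside 10.3% and 7.55% of all genes, with a median log2 fold change of -1.10. Without any 1 library the number lower was 20 or 21. Sqle (chromosome 15, 59146632 to 59162747, plus strand, NCBIM37), squalene epoxidase, was at 328, 453 and 298 CPM at P21 and at 72.2 to 131 CPM (median 94.6) at P60 (log2 fold change -1.98, SE 0.18, edgeR adjusted p = 1.59e-06), and Cyp51, which demethylates lanosterol, at 364, 448 and 359 CPM against 87.9 to 158 CPM (-1.97, SE 0.16, edgeR adjusted p = 3.92e-07). Both were without overlap. Idi1 (-2.10) and the fatty acid synthase Fasn (-1.24) changed in the same direction. The higher genes were Srebf1 (0.96), whose groups overlapped, and Scd1 (0.68), and both calls were lost without P21 library 2 or 3 (adjusted p of up to 0.077 and 0.15).

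Myelin genes changed in both directions. Of 37 tested, 13 were lower and 7 higher, beside 10.3% and 7.55% of all genes. Among the lower genes were the structural myelin proteins Mbp with 12046, 21002 and 19477 CPM at P21 and 9113 to 11943 CPM (median 10142) at P60 (log2 fold change -0.83, SE 0.15, edgeR adjusted p = 0.000897) and Mog (-0.80, SE 0.13). The tight junction protein Cldn11 changed by -0.85. Enzymes of galactolipid synthesis were lower as well. Ugt8a, which makes galactosylceramide, was at 1287, 1835 and 1709 CPM against 281 to 505 CPM (median 329) (-2.24, SE 0.17, edgeR adjusted p = 3.92e-07), Gal3st1, which sulphates it, changed by -1.54 and Fa2h, which hydroxylates its fatty acid, by -1.36. Mag had a log2 fold change of -0.04 (SE 0.14, edgeR adjusted p = 0.876) and Cnp of -0.36 (SE 0.12), under the fold limit. Among the higher genes Car2, carbonic anhydrase, was at 1948, 2701 and 2729 CPM at P21 and at 3823 to 8317 CPM (median 6260) at P60 (1.25, SE 0.22, edgeR adjusted p = 0.000897), and Qdpr, which recycles tetrahydrobiopterin, at 1128, 1125 and 1086 CPM against 2186 to 2567 CPM (1.00, SE 0.13). Apod (1.33) was called with all libraries but was lost without P21 library 2 or 3 and without P60 library 2, 3 or 5 (adjusted p of up to 0.12), and Aspa (0.73) was lost without P21 library 3 (0.063). Lineage genes of younger stages were lower in 6 of 15 and higher in 0 (10.3% and 7.55% of all genes), among them Gpr17 (-1.99), Enpp6 and Olig1 (-0.88). In Oligo the NF Oligo markers, which hold Gpr17 and Enpp6, summed to 401 to 469 CPM at P21 and 259 to 315 CPM at P60. The OPC markers, which also hold Gpr17, summed to 59.7 to 103 against 2.51 to 36.1 CPM. Both were without overlap, and the part of such cells in these values was not tested.

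In NF Oligo, which express Bmp4 and Enpp6 at both ages, few calls were stable. The summed markers of Oligo were at 51719 to 56461 CPM at P21 and 25966 to 43765 CPM at P60 in this class, and those of OPC at 1254 to 1383 against 1536 to 2380 CPM, both without overlap, and their part in the values below was not tested. Bmp4 had a log2 fold change of 0.28 (SE 0.18) and Enpp6 of 0.07 (SE 0.17), and none of 22 lineage genes was called. Hspa1a was at 11.6, 12.8 and 17.7 CPM at P21 and at 119 to 224 CPM (median 187) in 5 P60 libraries (3.57, SE 0.33, edgeR adjusted p = 2.87e-06), without overlap. Pcdhb9, a clustered protocadherin, changed by 3.24, Serpind1 by 2.75, Ifi27l1 by 2.22 (SE 0.22, edgeR adjusted p = 6.16e-06) and the small heat shock protein Cryab by 1.92 (SE 0.20). Mbp was at 21082, 25397 and 24765 CPM against 6781 to 13900 CPM (median 11766) (-1.17, SE 0.21, edgeR adjusted p = 0.014). Of 27 sterol and fatty acid genes 5 were lower, among them Acat2, Cyp51, Fasn and Sqle, and 0 higher (1.19% and 0.746% of all genes), and without P60 library 7 or 11 there were 0 and without P21 library 2 there was 1. The calls of Fosb (2.12), Yeats4 (-2.66), Birc2 (-2.53), Pfn1 (-2.25), Tmem93 (-2.02), Gm10071 (-2.02) and Marcksl1 (-1.26) were each lost without P60 library 11 or 7 or both, with an edgeR adjusted p of up to 0.12. Of 23 immediate-early genes 3 were higher (Fos, Fosb, Klf6) and 0 lower, beside the same shares of all genes, and 1 without P60 library 5, 7 or 11 or P21 library 2 and 6 without P21 library 1. In Exc Fos was lower, and the difference between these classes was not tested.

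Of 38 tested astrocyte identity genes, 0 were higher and 3 lower (Cpe, Hmgn1, Sparc), beside 0.121% and 0.984% of all genes, and 3 higher and 5 lower without P21 library 1. Gja1, the gap junction protein connexin 43, had a log2 fold change of 0.07 (SE 0.23) and the water channel Aqp4 of -0.01 (SE 0.25). Sparc, a secreted matrix protein, was at 585, 872 and 882 CPM at P21 and at 143 to 307 CPM (median 175) at P60 (-1.94, SE 0.25, edgeR adjusted p = 0.00202), without overlap. Fabp7, the fatty acid binding protein of immature astrocytes, was lower by -1.50 (SE 0.25), a call lost without P21 library 3 (edgeR adjusted p = 0.070). Wls, which escorts Wnt proteins to the surface, was at 36.5, 58.1 and 52.4 CPM against 116 to 180 CPM (median 140) (1.68, SE 0.29, edgeR adjusted p = 0.00865). Rpe65 was counted in 3 UMIs at P21 and in 109 at P60, a ratio of CPM of 11.6 with a counting interval of 3.88 to 57.3. Efemp1 (2.80), Agxt2l1 (1.70) and Hhatl (1.64) were called with all libraries, and their calls were lost without P21 library 2 or 3 or P60 library 7 (adjusted p of up to 0.14). Immediate-early genes were lower in 7 of 26 and higher in 0 (median -1.53), in 13 of 22 without P21 library 1, in 4 without P21 library 2 or 3 and in 3 of 24 with agreeing labels. Jun was at 251, 378 and 367 CPM against 45.1 to 114 CPM (-1.93, SE 0.26), and Socs3, an inhibitor of cytokine signalling, at 53.3, 213 and 140 CPM against 0 to 16.6 CPM (-3.43, SE 0.48). Marcksl1 changed by -2.82 (SE 0.41). The calls of Ier2 (-3.60), Pfn1 (-2.78) and the interneuron peptide Sst (-2.73) were lost without P60 library 7, among others (adjusted p of up to 0.18).

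Microglia gave the fewest calls. P21 libraries 1 to 3 held 149, 21 and 12 of these cells, with 42097 and 25367 UMIs in libraries 2 and 3. A value of 0 CPM in these 2 libraries therefore rests on few UMIs. None of 52 tested homeostatic genes was called in either direction (median log2 fold change 0.39), beside 0.726% of all genes. P2ry12, the purinergic receptor of surveying microglia, was at 1376, 2114 and 1813 CPM at P21 and at 1451 to 3934 CPM (median 2796) at P60 (0.76, SE 0.34, edgeR adjusted p = 0.42), and the groups overlapped. Tmem119 (0.84, SE 0.30, edgeR adjusted p = 0.255), Csf1r (0.48, SE 0.25), Cx3cr1 (0.35, SE 0.24) and the complement gene C1qa (1.2, SE 0.38, edgeR adjusted p = 0.202) did not pass either. Klk8, a secreted protease, was the only gene higher at P60 with all libraries, at 55.6, 0 and 0 CPM against 196 to 336 CPM (2.65, SE 0.46, edgeR adjusted p = 0.0109). The largest decreases were genes of other glia and of vessels, Fabp7 (-5.18), Scrg1 (-4.95), Pllp (-4.61), Ptprz1 (-4.51) and Cldn5 (-4.11). Fabp7 was at 92.6, 143 and 394 CPM at P21 and at 0 to 13.3 CPM at P60. The summed astrocyte markers in microglia were at 760 to 2365 CPM at P21 and 268 to 697 CPM at P60, the OPC markers at 71.3 to 315 against 0 to 10.0 CPM, and the microglial markers themselves at 20854 to 31725 against 31733 to 50396 CPM. The calls of Pllp, Ptprz1 and Cldn5 were lost without P21 library 1 (adjusted p of up to 0.10). Marcksl1 was called as well (-1.68, SE 0.29) and was lost without the same library (0.37).

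Genes of vessel growth were lower at P60 in Endo. Of 34 tested angiogenic genes 16 were lower and 0 higher at P60, beside 7.35% and 5.31% of all genes (median log2 fold change -0.67). Aplnr (chromosome 2, 84976517 to 84980079, plus strand, NCBIM37), the apelin receptor of sprouting and venous endothelium, was at 60.0, 78.9 and 73.8 CPM at P21 and was not found at P60, with 568 UMIs against 0, which makes it at least 191-fold lower at a floor of 3 UMIs over the group (0.365 CPM). Its ligand gene Apln, a marker of tip cells, was at 59.1, 79.4 and 89.6 CPM against 0 to 2.90 CPM (median 1.53) (-5.80, SE 0.34, edgeR adjusted p = 2.18e-07). Angpt2, an antagonist of the TIE2 receptor, changed by -2.57 (SE 0.23), and Kdr, the main receptor of VEGF, was at 789, 682 and 763 CPM against 246 to 344 CPM (-1.43, SE 0.12, edgeR adjusted p = 1.47e-06). None of these overlapped between the ages. Flt1, the other VEGF receptor and an endothelial marker, was higher by 0.43 (SE 0.11), under the fold limit.

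Basement membrane genes were lower in 14 of 25 and higher in 0 (median log2 fold change -0.78), beside 7.35% and 5.31% of all genes. Col4a2 was at 617, 622 and 639 CPM at P21 and at 131 to 159 CPM (median 145) at P60 (-2.25, SE 0.10, edgeR adjusted p = 3.08e-09), and Col4a1 at 413, 321 and 324 CPM against 80.4 to 119 CPM (-1.95, SE 0.13). These genes of the collagen IV network lie head to head on chromosome 8 and overlap at their starts on opposite strands. Lamb1, a laminin chain, changed by -2.96 (SE 0.18, edgeR adjusted p = 2.1e-07), the nidogens Nid1 and Nid2, which link laminin with collagen IV, by -1.92 and -2.09, and Lama4 by -0.78. Perlecan (Hspg2, -0.75) fell under the fold limit without P21 library 1. The list also holds fibrillar collagens of fibroblasts, and 5 fibroblast markers summed to 120 to 165 CPM in Endo at P21 and to 40.4 to 86.9 CPM at P60. The 7 markers of mural cells, the pericytes and smooth muscle of the vessel wall, summed to 4315 to 5310 CPM at P21 and 5564 to 7882 CPM at P60, with 3 of 7 called higher, and the part of such cells in the values of Endo was not tested. Against the same background, genes of the cell cycle were lower in 9 of 24 and higher in 1. Ccnd1, cyclin D1, was at 176, 236 and 245 CPM against 66.4 to 92.2 CPM (-1.64, SE 0.13, edgeR adjusted p = 1.33e-06), and Cdk1, the mitotic kinase, at 8.78, 15.1 and 17.0 CPM against 0 to 1.28 CPM. Fgfbp1 (-2.84) and Tubb6 (-3.05) were among the largest decreases. The 5 erythrocyte markers made up 104469 to 135124 CPM of Endo at P21 and 53466 to 89027 CPM at P60, with Hbb-b2 at -1.35 (SE 0.18). Leaving out globins before scaling kept the counts of Endo within 1.5 times.

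Many genes of antigen presentation and some of the interferon response were higher at P60 in Endo. Of 26 tested genes of complement and of the major histocompatibility complex (MHC) 16 were higher and 2 lower (median log2 fold change 0.97), beside 5.31% and 7.35% of all genes, and the lower ones, C1qb and C1qc, were not lower with cells whose 2 labels agreed. H2-K1, a classical class I heavy chain, was at 265, 152 and 152 CPM at P21 and at 529 to 1257 CPM (median 715) at P60 (1.89, SE 0.32, edgeR adjusted p = 0.00358). B2m, the light chain that all class I molecules share, was at 1097, 807 and 716 CPM against 1669 to 3127 CPM (median 2301) (1.28, SE 0.18, edgeR adjusted p = 0.000304). Psmb8, a subunit of the immunoproteasome that cuts peptides for class I, was at 119, 83.1 and 83.9 CPM against 220 to 390 CPM (1.45, SE 0.20). H2-T23 changed by 1.01 (SE 0.20), H2-D1 by 0.83 (SE 0.16) and H2-Q7, one of several near-identical Q-region genes whose reads can be split between copies, by 4.90 (SE 0.52). The libraries of the 2 ages did not overlap for any of these.

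Of 31 interferon-response genes 11 were higher and 1 lower (median 0.51), beside the same shares of all genes, and without P21 library 1 there were 19 higher and 0 lower. Ifit3, an RNA-binding antiviral protein, was at 43.6, 18.9 and 16.6 CPM at P21 and at 101 to 174 CPM (median 142) at P60 (2.16, SE 0.32, edgeR adjusted p = 0.00168). The transcription factor Irf1 changed by 0.97 (SE 0.18), and the guanylate-binding protein Gbp2 was at 57.6, 33.2 and 26.0 CPM against 68.6 to 150 CPM (1.27, SE 0.29, edgeR adjusted p = 0.015), a call lost without P21 library 2 or 3 (adjusted p = 0.073). In Exc 8 of 19 complement and MHC genes were higher and 2 lower (8.18% and 11.1% of all genes), or 11 higher and 0 lower with cells whose 2 labels agreed, the higher ones including B2m (0.95, SE 0.11) and H2-T23 (1.94, SE 0.27). Between Endo and Exc, 14.2% of 13108 genes differed in their change, which is 1865 genes, or 1093 without P21 library 2 and 1145 without P21 library 3. H2-K1 rose more in Endo by 1.66 (SE 0.38, edgeR adjusted p = 0.0213), H2-T23 rose less by -1.02 (SE 0.21, edgeR adjusted p = 0.0043), and for B2m the difference did not pass (0.28, SE 0.20, edgeR adjusted p = 0.424). Microglia and Endo differed in 1.27% of 9125 genes, which is 116 genes, 209 without P60 library 11 and 60 or 67 without P21 library 2 or 3, with H2-K1 at -1.21 (SE 0.33, edgeR adjusted p = 0.0457) and H2-Q7 at -4.56 (SE 0.91, edgeR adjusted p = 0.0026) for microglia minus Endo.

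The promoters of 4 of these genes are given because they hold the letters GAAANNGAAA, of the kind that interferon regulatory factors bind, within the 250 bases before the start of the gene (RefSeq, GRCm38.p6, gene strand 5′ to 3′, matches on either strand in capitals). The windows are chr2:122147437-122147686 on the plus strand for B2m, chr17:36032702-36032951 on the minus strand for H2-T23, chr19:34583279-34583528 on the plus strand for Ifit3 and chr3:142620413-142620662 on the plus strand for Gbp2.
B2m: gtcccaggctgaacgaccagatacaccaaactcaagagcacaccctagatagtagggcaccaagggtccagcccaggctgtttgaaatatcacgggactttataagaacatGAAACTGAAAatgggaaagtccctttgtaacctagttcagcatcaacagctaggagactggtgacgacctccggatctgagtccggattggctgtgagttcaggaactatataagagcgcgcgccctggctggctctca
H2-T23: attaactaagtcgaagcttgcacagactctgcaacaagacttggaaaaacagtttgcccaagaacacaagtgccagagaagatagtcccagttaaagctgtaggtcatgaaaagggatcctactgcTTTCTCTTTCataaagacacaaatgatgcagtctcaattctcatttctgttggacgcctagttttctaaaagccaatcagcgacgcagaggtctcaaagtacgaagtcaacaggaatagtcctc
Ifit3: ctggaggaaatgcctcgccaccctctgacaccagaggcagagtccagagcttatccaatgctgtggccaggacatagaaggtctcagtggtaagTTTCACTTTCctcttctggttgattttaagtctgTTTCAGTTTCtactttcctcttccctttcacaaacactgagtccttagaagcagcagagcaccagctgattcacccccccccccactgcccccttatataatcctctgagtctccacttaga
Gbp2: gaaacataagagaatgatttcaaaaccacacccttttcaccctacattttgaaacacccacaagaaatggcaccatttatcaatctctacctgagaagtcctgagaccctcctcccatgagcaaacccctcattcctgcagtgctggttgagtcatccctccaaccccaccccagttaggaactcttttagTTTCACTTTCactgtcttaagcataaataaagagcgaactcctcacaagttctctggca
Ifit3 holds 2 matches and the other genes hold 1 each. The letters were found in 978 of 32851 promoter windows of this length (2.98%), and in 9 of 25 windows of the genes of both lists that were higher in Endo, of which 21 of 27 matched an entry by symbol. Over the whole interferon list, whether changed or not, 12 of 33 windows held them, and over the whole complement and MHC list 4 of 27. A match is a description of these letters and not a site.

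Of 43 blood-brain barrier genes tested in Endo, 3 were higher and 6 lower (5.31% and 7.35% of all genes), and 2 and 3 were lower without P21 library 2 and 3 and 5 or 6 higher without P21 library 1 or P60 library 11 or 12. Xdh, xanthine dehydrogenase, and Fmo2, a flavin monooxygenase, which are not on that list, were the largest increases. Xdh was at 8.18, 1.26 and 2.03 CPM at P21 and at 123 to 206 CPM (median 167) at P60 (5.18, SE 0.42, edgeR adjusted p = 3.41e-05), and Fmo2 at 1.82, 0 and 1.22 CPM against 45.4 to 121 CPM (5.97, SE 0.57). Sncg (3.85) and Slfn2 (3.19) were also among the large increases. Of the barrier genes the drug exporter Abcb1a (P-glycoprotein) was at 425, 350 and 385 CPM against 558 to 839 CPM (0.67, SE 0.15, edgeR adjusted p = 0.00501), and the organic anion transporter Slc22a8 changed by -0.72 (SE 0.14). Abcg2 (0.67) was lost without P21 library 1, and the lipid transporter Mfsd2a (-0.68) without P21 library 2 or 3 (adjusted p of up to 0.071). The tight junction gene Cldn5 was at 6334, 2099 and 1722 CPM at P21 and at 1096 to 2460 CPM at P60, and it did not pass (-1.18, SE 0.44, edgeR adjusted p = 0.121). Slc2a1, the glucose transporter, changed by 0.50, under the fold limit. Clock genes were higher in 6 of 17 and lower in 0 (median 0.64), with Per3 at 43.0, 70.5 and 70.6 CPM against 109 to 159 CPM (1.00, SE 0.18, edgeR adjusted p = 0.00124). The time of day of the dissections is not given in the sources used here.

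**Figure D4:**
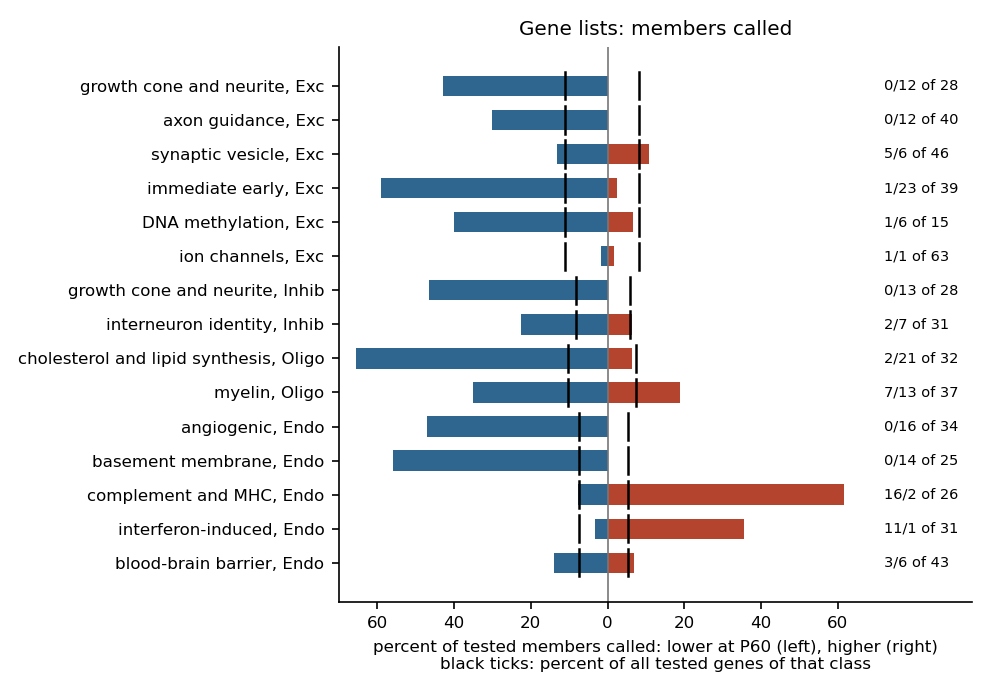
Percent of the tested members of 15 gene lists called lower (left) and higher (right) at P60, each list in the class where it is described, with black ticks at the percent of all genes of that class called in the same direction. Cholesterol genes in Oligo (21 of 32 lower) and complement and MHC genes in Endo (16 of 26 higher) lie farthest past their ticks.

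The study named 19 genes for this comparison, and it chose them on these libraries, so their direction here is not independent evidence. The study named several of them for single excitatory subtypes, such as Ptgds in neurons marked by Tshz2. It also reported in situ staining of Marcksl1, Ptgds and Hspa1a in such subtypes at both ages. Here all Exc cells of a library were pooled. In pooled Exc 5 were higher, 8 lower and 6 were not called, beside 8.18% of all genes higher and 11.1% lower. The higher genes were Hspa1a, Prmt1 (1.06), Hdac8 (0.94), Wwox (0.69) and Ezh1 (0.68). Hdac8, a histone deacetylase, was at 9.67, 4.52 and 5.37 CPM at P21 and at 10.8 to 13.9 CPM at P60, and Ezh1, a histone methyltransferase of the Polycomb group, at 23.1, 21 and 22 CPM against 32.1 to 34.9 CPM (SE 0.08, edgeR adjusted p = 5.99e-05). Beside Marcksl1, Dnmt3a, Tet1 and Mbd3, the lower genes were Yeats4 (-1.61), which reads acetylated histones, Hs3st5 (-1.05), which sulphates heparan, the ubiquitin-conjugating enzyme Ube2d3 (-0.75) and the vesicular glutamate transporter Slc17a6 (-0.59), whose call was lost without any of 5 libraries (adjusted p of up to 0.079). Ddn (-0.57), Kif5c (-0.47), Ube2h (-0.43) and Arid4a (0.31) had an adjusted p below 0.05 and stayed under the fold limit. Penk (-0.50, SE 0.36) and Ptgds (1.57, SE 0.81) overlapped between the ages and did not pass. Within Exc clusters Ptgds was higher at P60 in 23 and lower in 2 (median log2 ratio 2.29). Of those tested, 3 were higher and 5 lower of 17 in Inhib (5.73% and 8.27% of all genes), 2 and 4 of 12 in Oligo (7.55% and 10.3%), and 3 and 5 of 15 in Endo (5.31% and 7.35%).

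The share of cells in each class differed for the rarer neurons and for NF Oligo. Inhib made up 9.51% ± 2.59 of annotated cells at P21 (SD, n = 3) and 4.23% ± 1.88 at P60 (SD, n = 6), and NF Oligo 4.92% ± 0.521 and 1.10% ± 0.699. Both were without overlap (exact permutation test, two-sided, p = 0.0119 each, the smallest that 84 regroupings allow, Benjamini-Hochberg adjusted p = 0.0476 over 8 classes). These tests of shares treat the 3 P21 libraries as separate animals, which they cannot all be, so their p-values may be too small. Exc made up 56.3% ± 1.09 and 52.9% ± 15.6 (exact permutation p = 0.75) and Endo 19.9% ± 3.91 and 17.0% ± 5.15 (exact permutation p = 0.429). There were 6.28 ± 1.97 excitatory cells per inhibitory cell at P21 and 13.9 ± 4.97 at P60 (SD, n = 3 and 6, exact permutation p = 0.0476). OPC were 0.354% ± 0.242 against 3.16% ± 2.31 (exact permutation p = 0.0595) and microglia 1.49% ± 1.63 against 7.45% ± 5.22 (exact permutation p = 0.0833), and both groups overlapped. Annotated cells with at least 2 UMIs of Pdgfra, the growth factor receptor that defines OPC, numbered 70 at P21, of which 19 were labelled OPC and 51 had the label of another class, and 257 at P60, of which 251 were labelled OPC, and the part of the labels in the OPC shares was not tested. Shares depend on which cells survived dissociation and on the number of genes demanded of a cell, and the part of either was not tested.

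**Figure D5:**
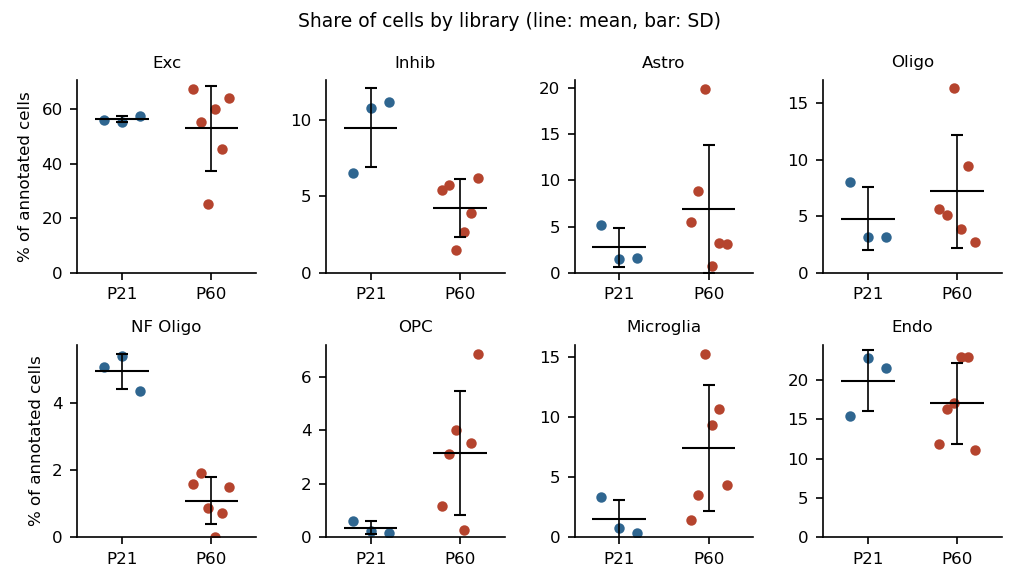
Percent of annotated cells in each class in every library, P21 (3 libraries) and P60 (6 libraries). The P21 libraries lie above all P60 libraries for Inhib and NF Oligo, and the ages overlap in the other classes.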

How the data were processed

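Libraries were prepared with a droplet single-cell method, and the authors deposited 1 matrix of UMI counts per library, made with Cell Ranger from reads aligned to mm9 and counted over Ensembl genes of NCBIM37. Cells with an unusually high number of genes or a high mitochondrial share had been removed with Seurat 2.1.0, and no doublet caller was run here. The deposited cell table holds the UMIs and genes of each cell, its cluster name and its mitochondrial share, a fraction that was converted to percent here. P21 cells had been named from P60 clusters after alignment of the ages. The members and the gene lists were chosen with earlier results of these data known.

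UMIs of each library and class with at least 10 cells were summed, leaving out 13 mitochondrial and 144 ribosomal genes (25988 of 26145 genes kept). Mitochondrial and ribosomal UMIs do not enter CPM. Genes were tested with edgeR 4.0.16 in R 4.3.3 (filterByExpr, TMM scaling, robust quasi-likelihood fit, all libraries of a class, no covariates), and differences between classes were fitted with the library as a block. Both fits were tested on simulated data. Shares were compared with exact permutation tests over libraries.

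Named genes were, per class, the 5 largest increases and the 5 largest decreases among called genes with a mean log2 CPM of at least 5, a symbol used once and no overlap between the ages. To these were added the 10 genes called in the same direction in most classes, members of the lists and cell type markers, and all 19 genes that the study named. The alternatives were DESeq2 1.42.0, its size factors within edgeR, no filter on low counts, other choices of P60 or P21 libraries, equal or higher numbers of cells, and each library left out in turn. Cells whose 2 deposited labels agreed, scaling without hemoglobin genes and P60 libraries 5, 7, 11 and 12 only were added after seeing the data. Libraries of cocaine mice and a joined table of fewer genes were not used, and some genes that the rule would name are not reported here. Intervals and the floor of 3 UMIs cover counting error only.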

Additional observations from a re-analysis of the deposited data

Results flagged for a closer look

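In 13 of 210 groups of P60 libraries examined, 1 library stood apart from the others by Dixon's test at 95%, and chance alone gives about 1 in 20. P60 library 12 was the highest for 7 of them. In Exc it held Tmem93 at 80.3 CPM (next highest 42.5), Pfn1 at 71.8 CPM (41.9), Yeats4 at 56.0 CPM (28.5), Hspa1a at 74.9 CPM (43.5) and the immediate-early gene Ier2 at 13.9 CPM (4.95), in Oligo the matrix protein Mgp at 9.85 CPM (3.44), and in Endo the globin Hbb-b2 at 8343 CPM (5792). P60 library 2 was the highest for Myh14 in Exc at 60.6 CPM (next highest 48.7), S100a6 in Exc at 303 CPM (184), Accn4 in Inhib at 119 CPM (75.7) and Sparc in Astro at 307 CPM (186). P60 library 5 was the lowest for Marcksl1 in Exc at 20.6 CPM (next lowest 32.6) and the highest for H2-D1 in Endo at 1534 CPM (1146). Since 13 of 210 is not far above 1 in 20, many of these may be due to chance. Whether anything sets these libraries apart was not tested.

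The change with age differed between classes for 7 named genes by the edgeR test of the difference itself. For Inhib minus Exc it was 1.28 for Marcksl1 (SE 0.14, edgeR adjusted p = 3.32e-08), which was lower at P60 in both classes, and -2.55 for Myh14, a non-muscle myosin heavy chain (SE 0.23, edgeR adjusted p = 3.93e-11), which was higher at P60 in Exc and did not pass in Inhib (0.12, SE 0.27, edgeR adjusted p = 0.802). Gpr83 differed by -3.28 (SE 0.22, edgeR adjusted p = 1.65e-09), being higher at P60 in Exc (1.76) and lower in Inhib (-1.46). Ass1, which makes argininosuccinate, differed by -1.64 (SE 0.21, edgeR adjusted p = 3.29e-05) and was higher in both (2.95 in Exc and 1.44 in Inhib). For Endo minus Exc the difference was 1.66 for H2-K1 (SE 0.38, edgeR adjusted p = 0.0213) and -1.02 for H2-T23 (SE 0.21, edgeR adjusted p = 0.0043). For microglia minus Endo it was -1.21 for H2-K1 (SE 0.33, edgeR adjusted p = 0.0457) and -4.56 for H2-Q7 (SE 0.91, edgeR adjusted p = 0.0026).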

How the results depend on the processing

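Of 163 named values that were called, none changed direction under any alternative and 99 were called under every alternative, 127 without any single library and 161 with cells whose 2 labels agreed. The rule for the largest changes requires absence of overlap, so leaving out libraries could hardly reverse the values it names. In microglia the 2 labels agreed for all cells, so that alternative could not change its values. Counts of called genes moved most in NF Oligo, Astro and microglia. With DESeq2 microglia had 53 called genes in place of 29. With P21 libraries 2 and 3 summed, Astro had 34 in place of 64 and NF Oligo 47 in place of 91. With P60 libraries 11 and 12 only, there were 1683 in Exc (2558 with all), 273 in Astro (182 higher and 91 lower, against 7 and 57 with all) and 14 in NF Oligo (12 and 2, against 35 and 56). With P60 libraries 2, 3, 5 and 7 only, Astro had 158 and microglia 248 (88 higher and 160 lower, against 1 and 28), and with libraries 5, 7, 11 and 12 only, chosen after seeing the data, Astro had 42, NF Oligo 57 and microglia 4. Demanding 30 cells left 14 in NF Oligo and too few libraries of microglia for a fit. With equal numbers of cells there were 250 in Inhib, 471 in Oligo, 6 in NF Oligo and 2 in microglia. Without the filter on low counts Astro had 354, NF Oligo 333 and microglia 159, and microglia minus Endo gave 195 genes. The cause was not tested, except that equal numbers of cells and fewer libraries leave fewer UMIs or samples. DESeq2's size factors in place of TMM moved no count by over 1.5 times.

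Leaving out 1 library at a time gave 767 to 1477 called genes in Inhib, 27 to 186 in Astro, 26 to 186 in NF Oligo and 7 to 68 in microglia. Differences between classes ranged from 827 to 1418 genes for Inhib minus Exc, 1093 to 1788 for Endo minus Exc and 60 to 209 for microglia minus Endo. The share of Inhib was lower at P60 by -6.77 to -4.42 percentage points and that of NF Oligo by -4.11 to -3.60, and with 8 libraries the adjusted p was 0.0714 or 0.143, the smallest such designs allowed here. Among neuronal cells alone the share of Exc was 7.12 points higher at P60 (exact permutation test, Benjamini-Hochberg adjusted p = 0.0317), whereas of all cells it was -3.37 points, and the denominator differs since only Inhib remains beside Exc. No paired analysis was possible because no library or mouse was measured at both ages and the replicate numbers were given in accession order.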

Other observations

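Of the remaining gene lists, imprinted genes, many of which are known to be expressed most in early postnatal life, were lower in 6 of 26 and higher in 2 in Exc (11.1% and 8.18% of all genes), with 5 to 7 lower when any 1 library was left out. In Endo they were lower in 6 of 21 and higher in 0 (7.35% and 5.31% of all genes), with 4 to 6 lower when any 1 library was left out. The nuclear genes of oxidative phosphorylation, of which 77 were tested, were near or below the share of all genes in every large class, with 3 higher and 4 lower in Exc (9 and 3 without P21 library 1), 0 and 6 in Inhib, 2 and 3 in Oligo and 0 and 4 in Endo. The shares of all genes higher and lower are 8.18% and 11.1% in Exc, 5.73% and 8.27% in Inhib, 7.55% and 10.3% in Oligo, and 5.31% and 7.35% in Endo. Heat shock genes were higher in 6 of 28 and lower in 2 in Oligo, with 3 higher without P60 library 2 or P21 library 2 or 3. In Exc they were higher in 3 of 37 and lower in 2, near or below the shares of all genes. Clock genes of Inhib were higher in 5 of 14 and lower in 0 (5.73% and 8.27% of all genes), with 1 to 3 higher without P21 library 1 or 3 or P60 library 2, 7, 11 or 12.

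Regulators of chromatin, of which 92 were tested in Exc, were higher in 8 and lower in 7 (8.18% and 11.1% of all genes), with 5 higher without P21 library 2 or 3. In Endo 2 of 89 were higher and 9 lower (5.31% and 7.35% of all genes), with 6 higher and 10 lower without P21 library 1, and 1 higher and 5 or 6 lower without P21 library 2 or 3.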
